A study of Oryza sativa and Arabidopsis thaliana with 28 samples.

Results

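The cytosolic large-subunit (60S) ribosomal protein genes of Arabidopsis thaliana described here are a list of 41 gene codes for 18 proteins, of which 36 were among the 21174 genes of the deposited Arabidopsis table, with at least 1 gene for each of the 18 proteins. The other 5 (RPP0C, RPL6A, RPL4D, RPL8B and RPL9B) were not analysed here. Of the 36, 31 share their protein with another listed gene of the table, in 13 families of paralogs. The 5 genes RPL4A, RPL13B, RPL18B, RPL19A and RPP1A had no other listed gene of their protein in the table. Paralogs outside the list of 41 were not looked for, so families and shares below cover listed genes only. Symbols were paired with gene codes from general knowledge, since the table gives codes only. Of the 28 samples of the series, 6 bear on these genes, all from seedlings of Col-0. Input mRNA was sequenced in 2 libraries, and so was mRNA recovered with ribosome-nascent chain complexes, called RNC below. RNC were pelleted through 30% sucrose at 185000 g for 5 h from lysates made with cycloheximide, a drug that holds ribosomes on mRNA; the labels give no seedling age for these 4 libraries. For N4-acetylcytidine (ac4C) sequencing, poly(A) RNA of day 10 seedlings was treated with 100 mM NaCNBH3, which makes ac4C read as T, or with mock buffer without it, both at 20 °C for 20 min, in 1 library each.

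Every cytosolic 60S subunit holds ribosomal RNA and a set of proteins present once each, apart from the acidic stalk proteins. In plants most of these proteins are encoded by small families of paralogs with closely similar proteins, and growing tissue of seedlings needs them in large amounts. Their mRNAs are among the best known examples of genes whose translation is adjusted together with growth. The RNC libraries ask how much of each mRNA was bound to ribosomes, and ac4C sequencing asks at which cytosines the treated RNA was read as T.

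The mRNA libraries held 39128550 and 39339118 reads, of which 18768358 and 18847446 lay in genes of the table, and the RNC libraries held 21106920 and 19544444 recovered reads in those genes. As a check of the tissue, 3 of 4 leaf and light-harvesting genes were in the table at 1679 to 8441 RPKM (reads per kilobase, scaled to library size) in mRNA library 1. In that library 4 of 4 root genes lay at 0.493 to 8.19 RPKM, and 1 of 4 dry-seed genes was in the table, at 0.0223 RPKM. None of the 4 pollen genes was in the table.

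The 36 genes were mostly high, with a median mRNA level of 60.5 RPKM against 2.43 RPKM over all genes of the table. Levels are means of 2 libraries, with reads divided by the span of the gene from start to end. Of the 36, 30 lay in the highest 10% of genes. The highest was RPL8A with 184 ± 3.17 RPKM (SD, n = 2) and the lowest RPL3B with 3.24 ± 0.370 RPKM (SD, n = 2). The members held 0.826% and 0.824% of the mRNA reads in genes, and 0.955% and 0.928% of the RNC reads. The gap between the 2 mRNA libraries, relative to their mean, had a median of 3.44% and reached 16.4%, at RPP0A.

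RNC levels needed 1 step before they could be set beside mRNA. The deposited mRNA RPKM were whole reads over the gene span, whereas the deposited RNC RPKM were divided by another length that had no relation to the span (Spearman's rho = -0.0089 across 12074 genes with 1 transcript). The RNC reads behind each gene were therefore recovered from the ratios of its values between libraries and transcripts, and divided by the same gene span. The recovered reads are the fewest that the values allow with lengths in steps of 3 bases, as coding lengths have. In simulated data, built on the recovered reads and lengths, 89.7% of genes came back exactly, 6.30% at 1/2, 1.81% at 1/3 and 0.819% at 1/4 of the true reads. None could come back too high there, as the step of 3 and the library totals were set as true. In the data both are assumed, and 5084 genes had more recovered reads with the step of 3 than without it. Real recovered reads could thus also be too high, which was not tested. Genes with 1 transcript, as 21 members are, came back exactly in 85.3% and at 1/2 in 8.65%. For genes with several transcripts these were 95.5% and 3.15%. A low RNC level can thus be the true level divided by a small whole number.

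**Figure D1:**
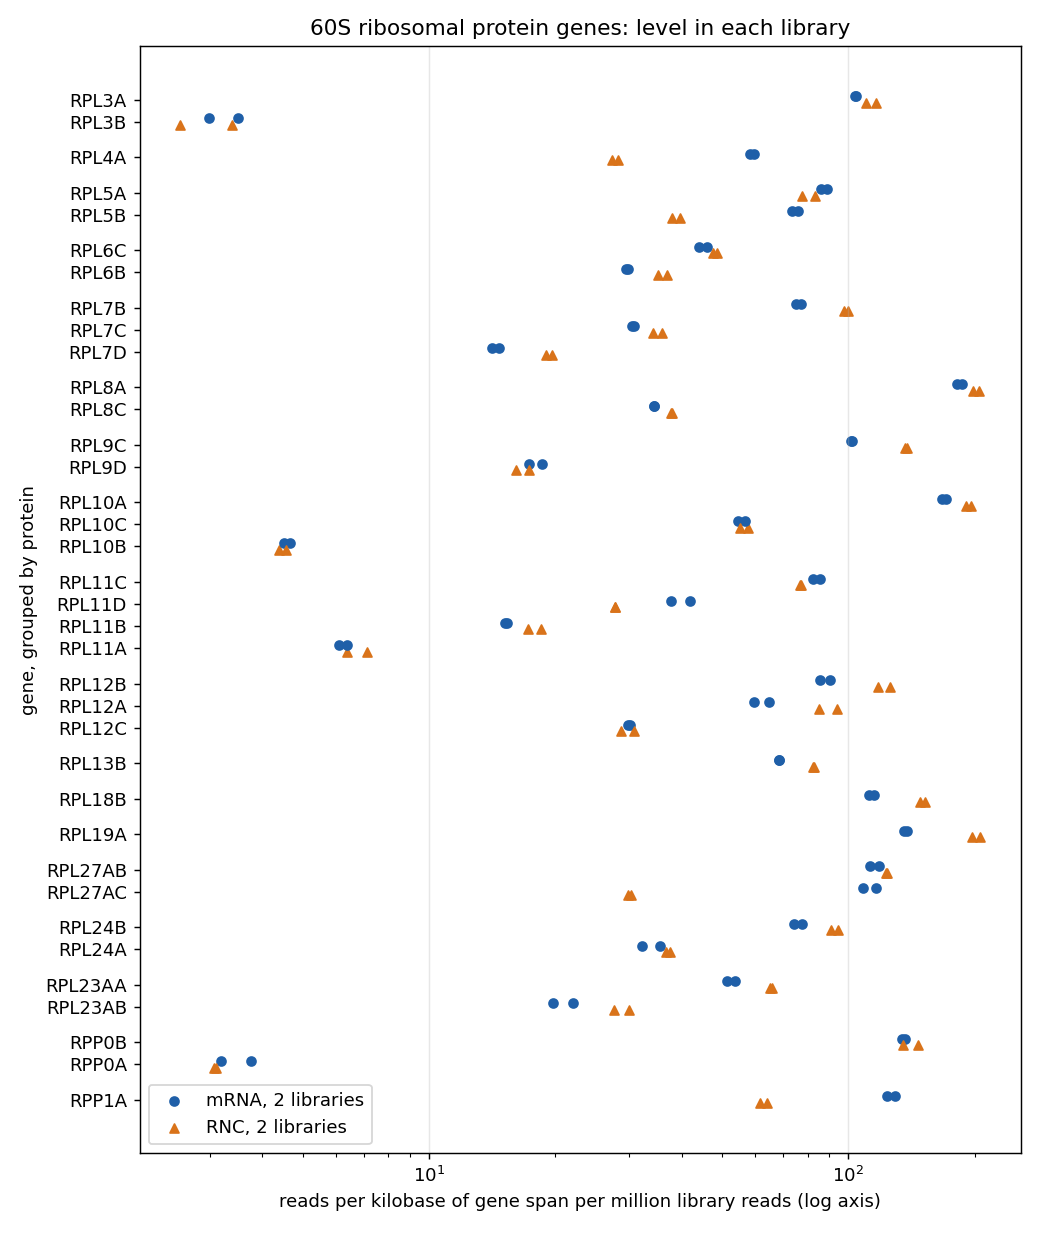
Level of each of the 36 genes, grouped by protein, in every library: blue points are the 2 mRNA libraries and orange triangles the 2 RNC libraries, in RPKM over the gene span on a log axis. In mRNA the highest and lowest paralogs of RPL3, RPL10, RPL11 and RPP0 lie more than 10-fold apart, and RPL27AC, RPP1A, RPL4A and RPL5B have RNC levels well below their mRNA levels. The RNC levels rest on the fewest reads that the values allow.

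The proteins next to the peptidyl transferase centre and the exit tunnel are RPL3, RPL4, RPL8 and RPL23A. RPL3A (AT1G43170, chr1:16266553-16268945), whose protein reaches towards the catalytic centre, was at 103.8 and 104.5 RPKM in the mRNA libraries and at 116.6 and 110.0 RPKM in the RNC libraries. Its paralog RPL3B (AT1G61580) was at 2.98 and 3.50 RPKM in mRNA and at 3.39 and 2.54 RPKM in RNC. RPL3A exceeded RPL3B 34.9-fold and 29.8-fold in the 2 mRNA libraries, and RPL3B held 3.02% of the summed mRNA level and 2.55% of the summed RNC level of the pair. RPL8A (AT2G18020, chr2:7837067-7838476), a protein of the subunit's core, was at 186.2 and 181.7 RPKM in mRNA and at 205.3 and 198.4 RPKM in RNC. RPL8C was at 34.4 RPKM in both mRNA libraries and at 37.8 and 37.9 RPKM in RNC, so RPL8A made up 84.2% of the pair in mRNA and 84.2% in RNC. RPL23AA, at the tunnel exit, was at 53.8 and 51.3 RPKM in mRNA and rose to 64.9 and 65.6 RPKM in RNC. RPL23AB was lower in each library, at 19.8 and 22.1 RPKM in mRNA, and rose to 27.6 and 30.0 RPKM in RNC. RPL4A (AT3G09630, chr3:2953693-2955748), which lines the exit tunnel, went the other way on recovered reads, with 58.4 and 59.5 RPKM in mRNA and 28.3 and 27.3 RPKM in RNC. The recovered reads of RPL4A may be a fraction of the true reads, so its RNC level may be too low.

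RPL5 and RPL11 bind 5S ribosomal RNA and enter the subunit as 1 particle with it. RPL5A (AT3G25520) and RPL5B (AT5G39740) were close in mRNA, at 86.2 and 88.9 RPKM against 75.8 and 73.4 RPKM, a 1.17-fold difference without overlap between the libraries. In RNC they stood further apart, with 77.5 and 83.4 RPKM for RPL5A and 39.7 and 38.0 RPKM for RPL5B. The share of RPL5B in the pair was 46.0% in mRNA and 32.6% in RNC. The recovered reads of RPL5B may be a fraction of the true reads, so its RNC level and share may be too low. The 4 RPL11 genes formed a ladder in mRNA, in the order RPL11C (85.7 and 82.2 RPKM), RPL11D (41.8 and 37.8 RPKM), RPL11B (15.3 and 15.2 RPKM) and RPL11A (6.08 and 6.36 RPKM), and no neighbours overlapped. RNC kept that order, with 77.2 and 76.5, 27.7 and 27.7, 18.5 and 17.2, and 6.37 and 7.12 RPKM. RPL11D thus held 27.4% of the family in mRNA and 21.5% in RNC, and RPL11B 10.5% and 13.8%. The recovered reads of RPL11D may likewise be a fraction of the true reads.

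The stalk that recruits translation factors is built of the acidic proteins RPP0 and RPP1 on a base that includes RPL12. RPP0B (AT3G09200) was at 134.2 and 136.7 RPKM in mRNA and at 146.6 and 134.9 RPKM in RNC, and RPP0A at 3.77 and 3.20 RPKM in mRNA and 3.08 and 3.10 RPKM in RNC. The 38.9-fold gap between their mRNA levels was the widest between the highest and the next analysed paralog of any of the 13 families. RPP0C, also listed for this protein, was not analysed, so a closer paralog may be missing. RPP1A (AT1G01100, chr1:49909-51210) was at 128.8 and 123.5 RPKM in mRNA and at 64.1 and 61.6 RPKM in RNC. Its recovered reads may be a fraction of the true reads, so its RNC level may be too low. The 3 RPL12 genes were nearer to each other, with RPL12B at 90.4 and 85.6 RPKM, RPL12A at 59.6 and 64.5 RPKM and RPL12C at 30.1 and 29.8 RPKM in mRNA. In RNC, RPL12B rose to 125.6 and 117.4 RPKM and RPL12A to 93.7 and 85.1 RPKM, while RPL12C was at 30.9 and 28.6 RPKM. RPL12C made up 16.6% of the family in mRNA and 12.4% in RNC.

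RPL10 joins the subunit late in its maturation, and RPL24 and RPL19 reach across to the small subunit. RPL10A (AT1G14320, chr1:4888114-4889704) was at 171.2 and 166.9 RPKM in mRNA and rose to 195.6 and 190.7 RPKM in RNC. RPL10C was at 54.7 and 56.6 RPKM in mRNA and 57.7 and 55.0 RPKM in RNC, and RPL10B at 4.66 and 4.50 RPKM in mRNA and 4.39 and 4.55 RPKM in RNC. RPL10A lay 3.04-fold above RPL10C and 36.9-fold above RPL10B in mRNA. RPL24B, known from the mutant short valve1 for its part in reinitiation after upstream reading frames, was at 77.7 and 74.3 RPKM in mRNA and rose to 94.4 and 91.0 RPKM in RNC. Its paralog RPL24A was at 32.1 and 35.5 RPKM in mRNA and 37.6 and 36.7 RPKM in RNC. RPL19A (AT1G02780, chr1:607799-609534) was at 137.8 and 135.8 RPKM in mRNA and rose to 206.5 and 197.4 RPKM in RNC, which put it level with RPL8A among the members.

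The remaining members encode other structural proteins of the subunit. RPL7B was at 74.97 and 77.2 RPKM in mRNA, RPL7C at 30.5 and 30.7 RPKM and RPL7D at 14.1 and 14.7 RPKM, and all 3 rose in RNC, to 97.8 and 99.5, 35.9 and 34.2, and 19.6 and 19.03 RPKM. RPL6C and RPL6B lay only 1.52-fold apart in mRNA, at 46.1 and 44.1 RPKM against 29.8 and 29.4 RPKM. RPL6B rose to 37.0 and 35.1 RPKM in RNC, and RPL6C was at 47.7 and 48.7 RPKM there. RPL9C (AT1G33140, chr1:12023225-12024783), known in mutants for its effect on leaf polarity, was at 101.6 and 102.1 RPKM in mRNA and rose to 137.9 and 136.3 RPKM in RNC. RPL9D was at 18.6 and 17.3 RPKM in mRNA and 16.1 and 17.3 RPKM in RNC. RPL18B rose from 115.1 and 112.1 RPKM in mRNA to 152.7 and 148.1 RPKM in RNC, and RPL13B from 68.4 and 68.2 RPKM to 82.7 and 82.3 RPKM. RPL27AB (AT1G23290) and RPL27AC (AT1G70600, chr1:26620821-26621779) formed the only family in which the libraries of the highest and the next paralog overlapped in mRNA, at 112.4 and 118.4 RPKM against 108.4 and 116.2 RPKM. In RNC they were far apart on recovered reads, at 123.7 and 123.0 RPKM against 30.3 and 29.8 RPKM. The recovered reads of RPL27AC may be a fraction of the true reads, so its RNC level and this gap are uncertain.

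Over the 13 families, the paralog with the highest mRNA level also had the highest RNC level over the gene span in all 13. In 9 families it exceeded the next paralog more than 2-fold in mRNA, and in 4 (RPL3, RPL10, RPL11 and RPP0) it exceeded the lowest more than 10-fold. RPL6, RPL8, RPL9 and RPP0 each have a listed paralog that was not analysed, so their gaps and shares rest on incomplete families. With reads not divided by a length, RPL27AC took the place of RPL27AB and the other 12 kept theirs. With the deposited RNC RPKM, RPL6B and RPL27AC took the first place of their families and 11 kept it. Paralogs share much of their coding sequence, and how reads that match several copies were counted is not given in the sources used here, so the split between near-identical copies is uncertain to that extent.

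**Figure D2:**
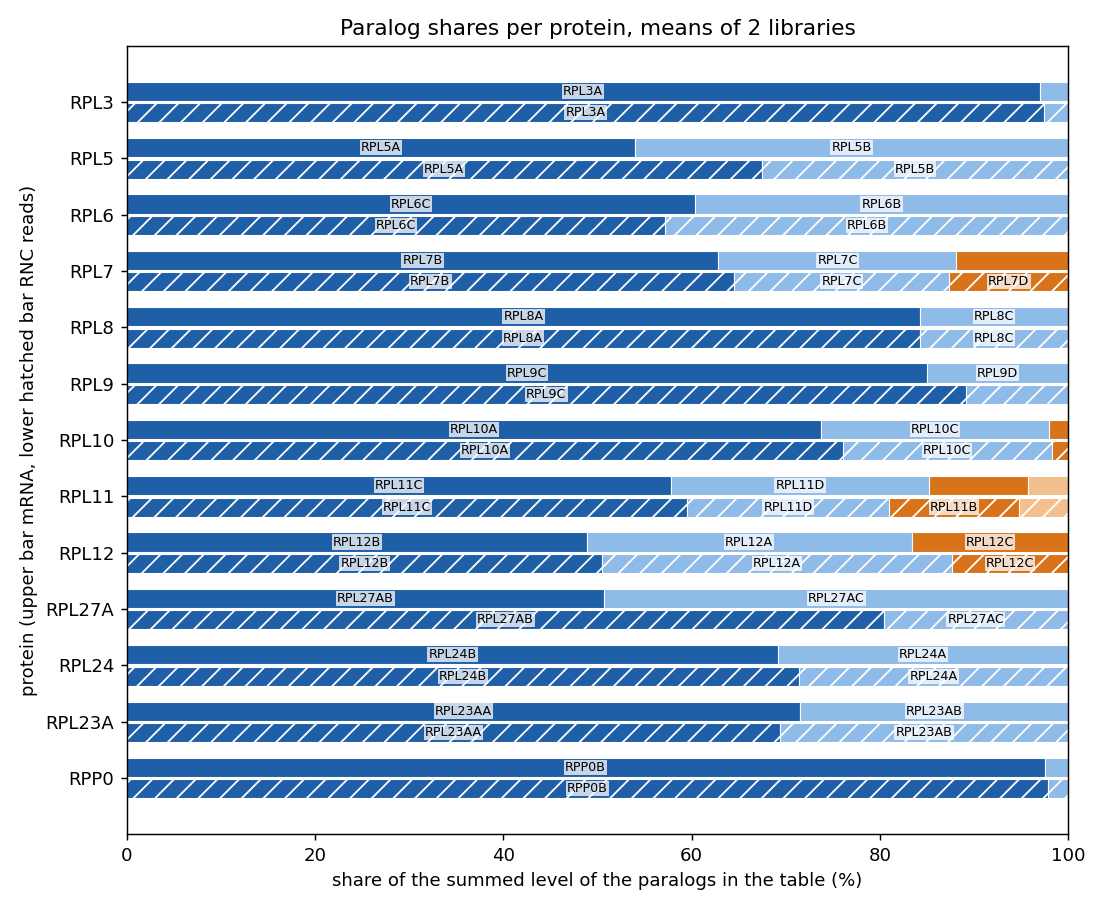
Share of each paralog in the summed level of its protein's listed paralogs in the table (%), as means of 2 libraries. The plain upper bar is mRNA and the hatched lower bar RNC reads per gene span. Unlabelled end pieces are paralogs with small shares. The bars of a pair nearly coincide in most families, and RPL27A (RPL27AC at 49.3% and 19.6%) and RPL5 (RPL5B at 46.0% and 32.6%) differ most. The recovered RNC reads of RPL27AC and RPL5B may be a fraction of the true reads.

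Tested across the table, 16 of the 36 members were higher and 5 lower in RNC than in mRNA, and 15 did not pass (limma, adjusted p under 0.05, RPKM over the gene span plus 1 on the log2 scale). Over all 14713 genes tested, 12.6% were higher and 29.1% were lower. The median log2 change was 0.13 over the members and -0.08 over all genes tested. The members were mostly high genes. With only genes at a mean of at least 5 RPKM, 16 of 33 members were higher and 5 lower, against 1188 and 2156 of all 6288 genes. RPL19A changed most among the members that rose, by 0.56 (SE 0.043, limma adjusted p = 2.19e-05). RPL12A rose by 0.52 (SE 0.063, limma adjusted p = 0.000292), RPL12B by 0.46 (SE 0.053, limma adjusted p = 0.000204) and RPL23AB by 0.44 (SE 0.072, limma adjusted p = 0.00147). The members RPL9C, RPL7D, RPL18B, RPL7B, RPL23AA, RPL24B, RPL6B, RPL13B, RPL11B, RPL10A, RPL7C and RPL8A rose by 0.43 to 0.13 on the log2 scale. Of these, RPL8A, RPL10A, RPL7C and RPL11B lost the call when 1 library was left out: without RNC replicate 1 their limma adjusted p were 0.196, 0.0522, 0.142 and 0.163. With log2 values centred on the library medians, which moved every change up by 0.16, 24 members were higher and 5 lower, against 27.2% and 17.8% of all genes. With each library divided by its reads over genes of the table, 22 were higher and 5 lower, against 16.8% and 20.5% of all genes. With lengths not held to steps of 3 bases, 13 were higher and 14 lower, against 11.1% and 46.8% of all genes. RPL19A, RPL7B and RPL7C, named above as rising, turned to a fall under that setting. The higher calls thus also depend on how the reads were recovered.

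The 5 members that fell were RPL27AC by 1.87 (SE 0.053, limma adjusted p = 1.67e-07), RPL4A by 1.06 (SE 0.052, limma adjusted p = 1.88e-06), RPP1A by 0.99 (SE 0.048, limma adjusted p = 1.88e-06), RPL5B by 0.92 (SE 0.051, limma adjusted p = 3.46e-06) and RPL11D by 0.50 (SE 0.062, limma adjusted p = 0.00032) on the log2 scale. In each of them both RNC libraries lay below both mRNA libraries. The other 31 members lay between -0.13 and 0.56. If the true RNC reads of RPL4A, RPP1A and RPL5B were 2 times the recovered ones, their changes would be -0.08, -0.01 and 0.06. For RPL27AC 2 times the reads would give -0.89 and 4 times the reads 0.10, and for RPL11D 2 times the reads would give 0.47. The values allow these multiples and do not choose among them, so the 5 lower calls are calls on the fewest reads.

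**Figure D3:**
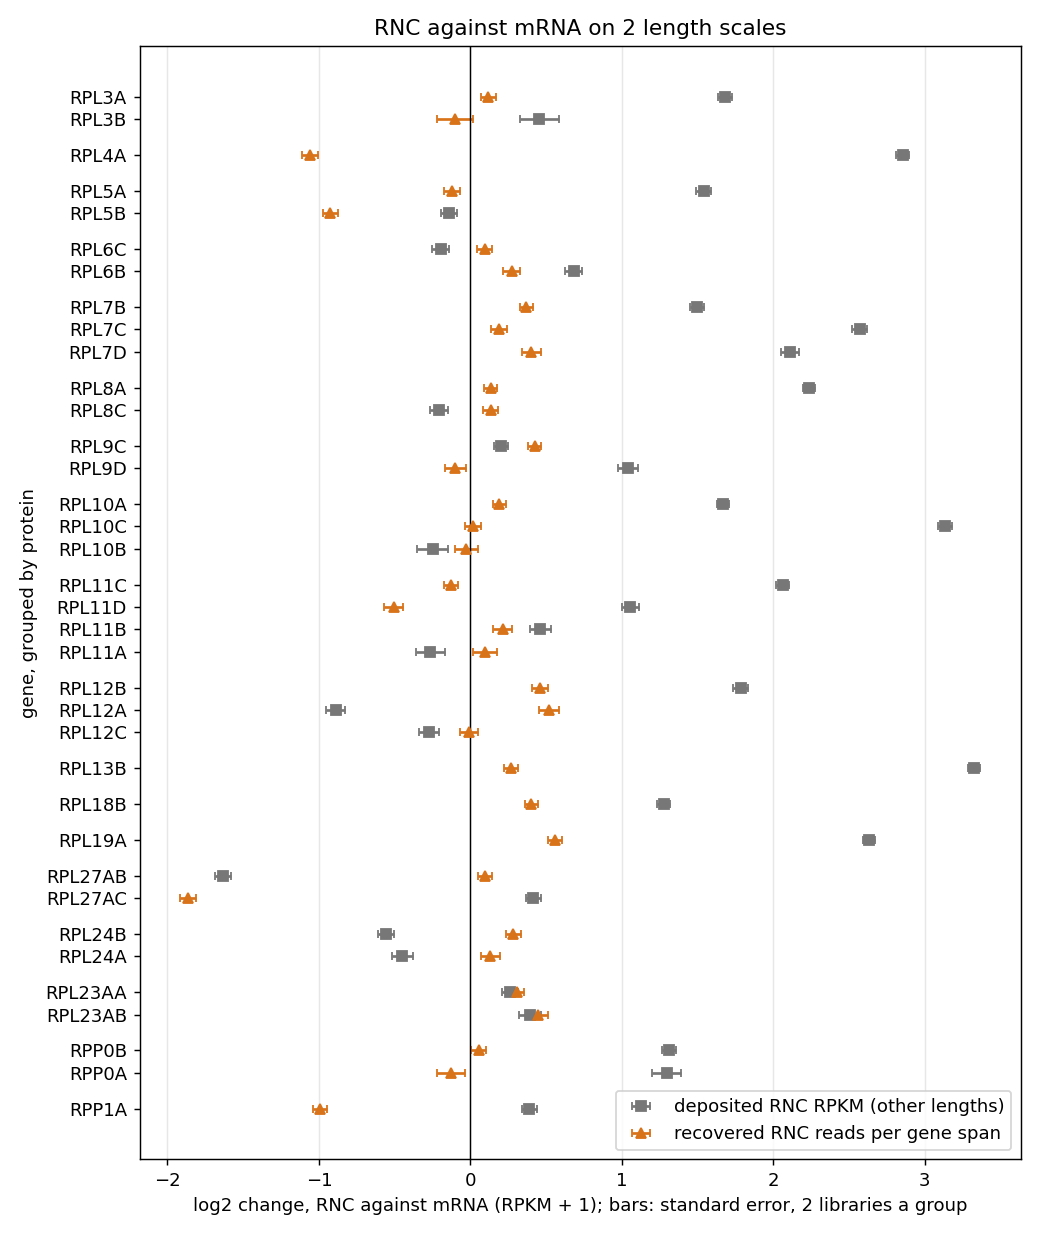
Change from mRNA to RNC for each of the 36 genes (log2 of RPKM plus 1, with the standard error from limma, 2 libraries a group), grouped by protein: orange triangles use recovered RNC reads over the gene span and grey squares the deposited RNC RPKM. The triangles stay between -0.13 and 0.56 except for the 5 members that fell, while the squares run from -1.63 at RPL27AB to 3.33 at RPL13B.

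On the deposited RNC RPKM, 26 of the 36 members were higher and 10 lower than in mRNA (limma, adjusted p under 0.05), where 76.1% of all 16487 genes tested were higher and 13.1% lower. With values centred on the library medians the split was 16 higher and 18 lower, against 38.7% and 43.8% of all genes. The SD over the members' log2 changes was 1.21 on the deposited values and 0.51 on the recovered reads. For RPL13B the 7 listed transcripts share 7809 reads in RNC library 1, divided by lengths of 84 to 1545 bases, which gave RNC RPKM of 107 to 1961. Across the 21 members with 1 transcript, the deposited change followed the ratio of gene span to the length used (Spearman's rho = 0.918, with shared libraries). The change from recovered reads had a rho of -0.41. That length was itself recovered from the deposited RNC values, so both rho are coupled to it by arithmetic and are a description only. Between the scales, 14 members were higher on both, RPL5B was lower on both, RPL4A, RPL11D, RPL27AC and RPP1A were higher on the deposited values and lower on the reads, and RPL12A and RPL24B were the reverse.

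Set against its family's highest paralog, a member's change from mRNA to RNC mostly came close to it. Of the 18 pairs of a highest paralog with another, 15 had log2 changes within 0.5 of each other on the recovered reads and 3 on the deposited values. On the recovered reads 31 of the 36 members lay between -0.13 and 0.56, so such closeness was not particular to paralogs. Pairs of different proteins were not compared. RPL8A and RPL8C differed by less than 0.01 in both replicates (0.0078 and -0.0086). The 3 pairs beyond 0.5 were RPL27AB minus RPL27AC with 1.94 and 1.98, RPL5A minus RPL5B with 0.76 and 0.84, and RPL9C minus RPL9D with 0.64 and 0.41. RPL12B minus RPL12C came near with 0.44 and 0.51. These differences were not tested, and the first 2 involve members whose recovered reads may be a fraction of the true reads. RPL9C lies beside RPL9B, which was not analysed here and whose protein is known to be near-identical.

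The other 60S genes gave a similar picture on the recovered reads, with 30 of 70 tested higher and 10 lower (limma, adjusted p under 0.05) and a median log2 change of 0.11. Of 79 small-subunit (40S) genes tested, 20 were higher and 19 lower, with a median of 0.04. With centring these became 43 and 8 of 70, and 44 and 11 of 79. The difference between the lists was not tested.

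Sites read as T after treatment could be set against 17 members on the plus strand, since the site table names no strand and lists reference cytosines; the 19 minus-strand members were left out. A called site was found in 16 of the 17, where 34% of all 10620 plus-strand genes of the table had one. Among the 3490 plus-strand genes within the members' range of mRNA levels the share was 68.0%, and it was 36 of 37 for other 60S genes and 31 of 33 for 40S genes. Of 836 sites tested in members, 832 were called higher in the treated library (Fisher's exact test, two-sided, T reads against the rest, Benjamini-Hochberg adjusted p under 0.05), where 94.3% of all 66873 sites tested were. The other 4, in RPL10A, RPL10C and RPL27AB, had adjusted p from 0.0528 to 0.0908, and none was called lower. The test compares 1 treated with 1 control library, and every listed site has at least 5 treated T reads, so cytosines below that were not listed. Sites without any control T read were listed, so the listing itself favours sites that are higher in the treated library. The share of sites called and their p-values are partly set by that listing.

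Treated rates were mostly a few percent or less. Over the 832 sites the treated rate had a median of 1.08% and the control rate a median of 0, at median depths of 820.5 and 3415 reads, and over all called sites these medians were 1.15% and 0. Treated rates ran from 0.272% to 10.7%, and 436 of the 832 sites had no T read in the control. At 528 sites, 63.5% of them, the call rested on 5 to 10 T reads, against 60.7% of all called sites. Across the 16 members with a called site, the median treated rate fell as the median depth rose (Spearman's rho = -0.941). At the listing minimum of 5 T reads the rate is by construction higher where the depth is lower.

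**Figure D4:**
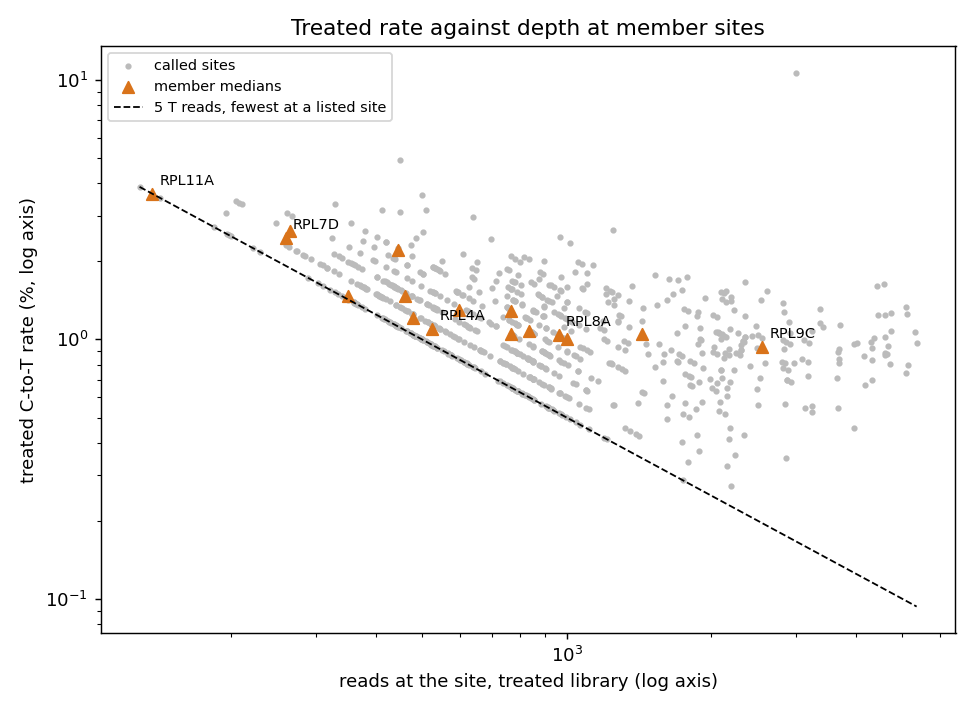
Treated C-to-T rate (%) against reads at the site in the treated library, both on log axes, for the 832 called sites (grey) and the medians of the 16 members (orange triangles). Points at low depth lie on or just above the dashed line of 5 T reads, the fewest at a listed site, and the RPL9C site at 10.7% stands above the rest.

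RPL9C held the only member site with a treated rate 5 points or more above the control. At chr1:12023983, base 759 of the gene counted from its start, 321 of 3004 treated reads were T, or 10.7%, with a 95% exact (Clopper-Pearson) interval from 9.60% to 11.8%. In the control library 153 of 4607 reads were T, or 3.32%, with an interval from 2.82% to 3.88% (Fisher's exact test, adjusted p = 2.03e-36). The control rate there was itself above the median treated rate of the members. The next highest was in RPL8C at chr4:17098370, base 966, with 22 of 449 treated reads, or 4.90% (3.10% to 7.32%), and 0 of 2250 control reads, which allows up to 0.133% (Fisher's exact test, adjusted p = 4.05e-17). In RPL5B at chr5:15904676, 16 of 509 treated reads were T, or 3.14%, against 2 of 2355 control reads. RPL11C had 19 of 639 at chr4:10302781, or 2.97%, and 0 of 2815 in the control. Intervals and limits cover counting error only, as these reads carry no molecular identifiers. Exon, intron and codon context of the sites was not used here. Called sites of RPL9C had the highest median treated depth of the plus-strand members, 2556 reads, with RPL11C next at 1438. How reads that match both RPL9C and its neighbour RPL9B were counted is not given in the sources used here. Their part in the RPL9C site was not tested.

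The number of called sites followed the mRNA level across the 17 plus-strand members (Spearman's rho = 0.894, as a description). RPL8A and RPL9C had 137 each, RPL3A 109, RPL10A 85, RPL18B 70, RPL4A 62, RPL11C 49, RPL27AB and RPL23AA 45 each, RPL5B 41 and RPL10C 27. The low paralogs had few, with 10 in RPL8C, 9 in RPL7D, 3 in RPL23AB, 2 in RPL11B, 1 in RPL11A and none listed in RPL10B. Paralogs of one protein thus differed as their levels did, as with RPL10A (169 RPKM, 85 sites), RPL10C (55.7 RPKM, 27 sites) and RPL10B (4.58 RPKM, none listed). The median treated rate was 1.01% for RPL10A at a median of 1000 reads and 1.21% for RPL10C at 479 reads. It was 1.04% for RPL8A at 963 reads and 2.21% for RPL8C at 445 reads. RPL11C had 1.05% over 49 sites, and the single site of RPL11A had 5 of 137 reads, or 3.65%. That site lies at the listing minimum of 5 T reads. At lower depth this minimum lists only higher rates, so rates and site counts of low paralogs are partly set by it. All 45 called sites of RPL27AB and 21 of RPL9C lie where a minus-strand gene of the table overlaps, so the strand of their RNA is uncertain. Without such sites 766 remained, in 15 members.

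**Figure D5:**
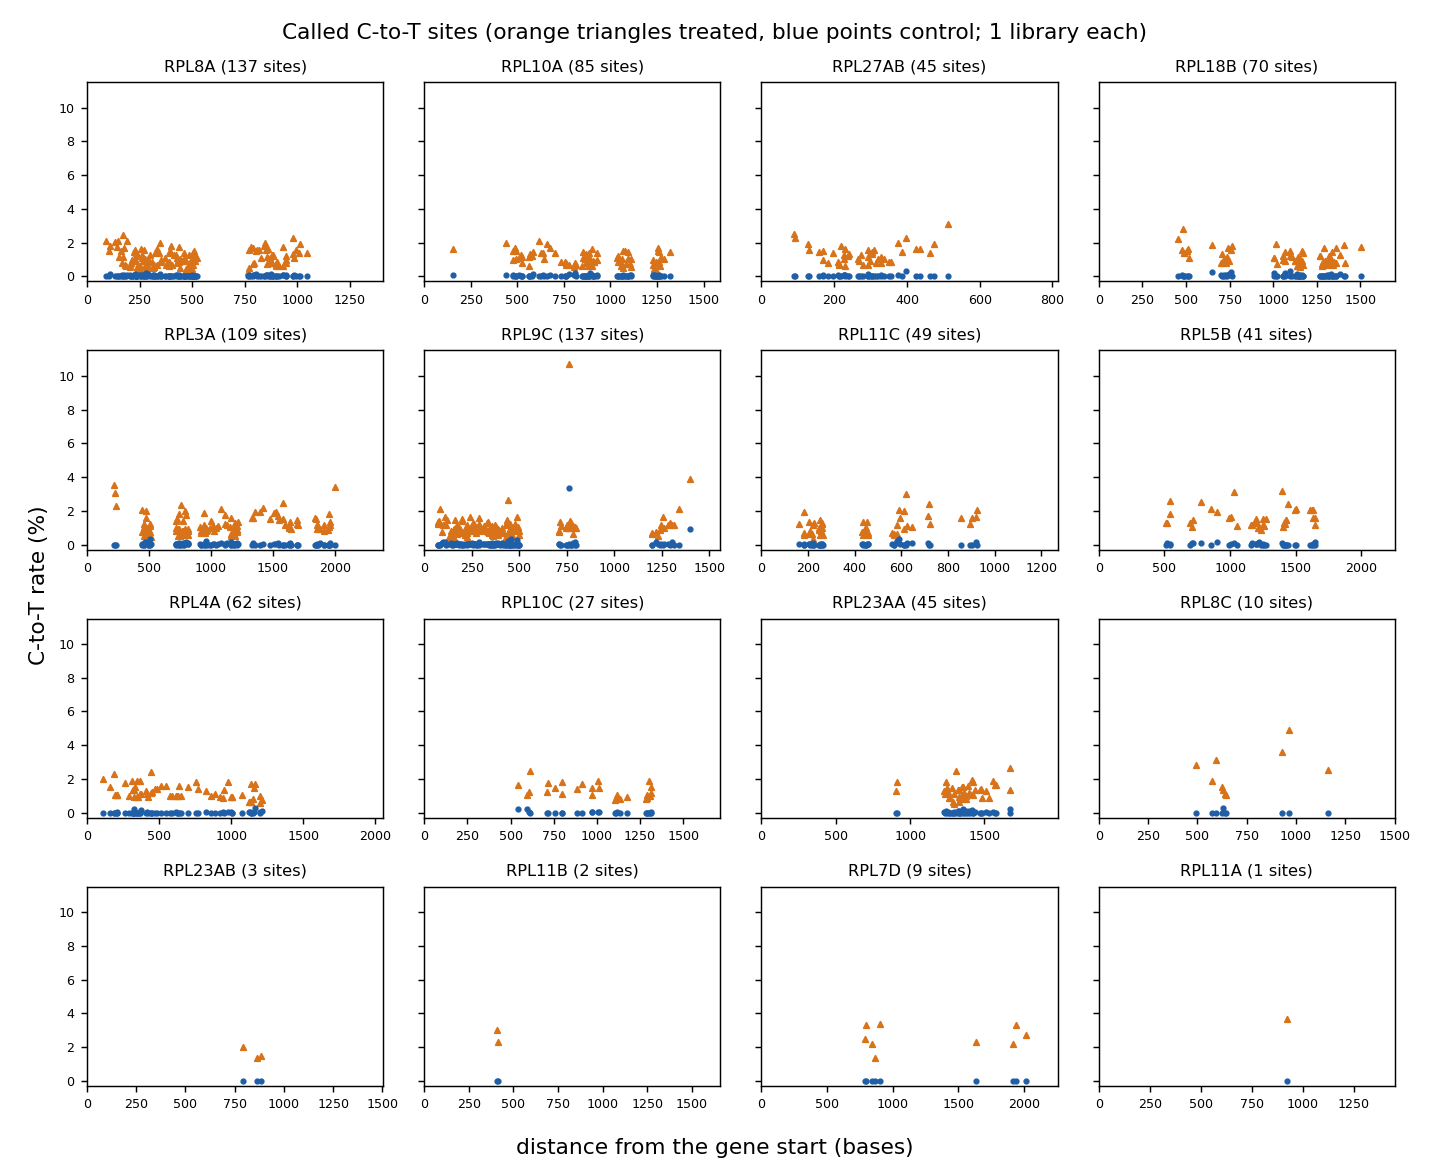
Called C-to-T sites along each of the 16 plus-strand members with a site, by distance from the gene start in bases, ordered by mRNA level; orange triangles give the treated and blue points the control rate (%), from 1 library each. Sites come in blocks with gaps between them and RPL9C holds the only point above 5%.

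Along the genes, 17.7%, 30.8%, 23.1%, 25.1% and 3.37% of the members' called sites fell in the first to the last of 5 equal parts of the span, against 15.0%, 22.6%, 24.5%, 27.3% and 10.6% for all called sites in plus-strand genes. The last part held 28 of the 832 sites, of which RPL9C had 9, RPL3A 6 and RPL18B 6. In RPL8A, 40 of 137 sites lay in the first part and none in the last. The depth of the cytosines without a listed site is unknown, so these shares describe the listed sites only.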

How the data were processed

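The 41 genes and the comparison lists were chosen with earlier results of these data known. The submitters' processing notes name STAR 2.5.3a, SAMtools and the build TAIR10; the counting rule is not given in the sources used here. The authors deposited RPKM per transcript for 2 mRNA and 2 RNC libraries, the natural log of their ratio, and, per listed cytosine, the count of T reads and of all reads with a p-value and an adjusted p-value. Deposited mRNA values were whole reads (100%, tolerance 0.01). RNC library totals (47396552 and 43872238) are known only up to a whole factor; the smallest was doubled so that lengths come in steps of 3, as 80.5% did with no such rule and 79.7% did in simulated data where all true lengths did. Reads were recovered for 21111 genes.

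A mean over transcripts was used for deposited RNC RPKM. Tests used limma 3.58.1 in R 4.3.3 (eBayes with trend) on log2(RPKM + 1) of genes whose mean RPKM reached 1, with neither block nor further scaling, Benjamini-Hochberg adjusted over all genes tested. P-values from 2 libraries a group measure only the spread between these libraries, which may be technical. With 100 genes changed by 0.5 or 1 on the log2 scale in simulated data, 30% and 77% were called on the recovered reads and 23% and 68% on the deposited scale (0 and 3 unchanged genes called). Fisher's exact test (scipy 1.17.1) was run on sites where each library had 10 or more reads. In simulated data it called 45% of 100 sites raised by 1 point and 85% of 100 raised by 3. All members are described, and per plus-strand member the called site with the highest treated rate at 50 or more reads could be named. Python 3.11.15, numpy 2.4.6, pandas 2.3.3 and matplotlib 3.10.9 were also used.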

Additional observations from a re-analysis of the deposited data

How the results depend on the processing

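Pseudocounts of 0.5 and 0.1 and no filter on low values left the member counts as reported (16 higher and 5 lower on recovered reads, 26 and 10 on deposited values). So did the replicate block, with 16 and 5, and 26 and 10. A filter at a mean of at least 5 RPKM gave 16 and 5 of 33 on recovered reads, and 25 and 9 of 34 on deposited values. Over all genes that filter gave 1188 and 2156 of 6288, and 8074 and 1128 of 9782. The labels do not say that replicate numbers pair the samples. The differences between replicates 1 and 2 in mRNA and in RNC had r = -0.018 across 14713 genes. That value cannot decide whether the samples were paired, as each group gives only the difference between its 2 libraries. Leaving out 1 library at a time, which assumes that the lone sample varies like the other group, gave 12 to 15 higher and 5 lower on recovered reads, and 25 to 26 higher and 7 to 9 lower on deposited values. On deposited values RPL10B, RPL11A, RPL3B and RPL5B lost their calls this way (limma adjusted p from 0.0559 to 0.168), and on recovered reads RPL24A gained one without mRNA replicate 2 (limma adjusted p = 0.0402). Dividing each library by its reads over genes gave 22 higher and 5 lower, against 16.8% and 20.5% of all genes. Centring gave 24 and 5 on recovered reads, and 16 and 18 on deposited values, where these members turned: RPL11B (-0.59), RPL23AA (-0.79), RPL23AB (-0.65), RPL27AC (-0.63), RPL3B (-0.59), RPL6B (-0.37), RPL9C (-0.84), RPL9D (-0.0072, not called) and RPP1A (-0.66). With the first listed transcript RPL5A (-0.40), RPL5B (0.16) and RPL7D (-0.069, not called) turned, and with the highest transcript RPL5B (0.16) did. Lengths not held to steps of 3, an alternative chosen after seeing the data, give fewer reads by construction and 13 higher and 14 lower, against 11.1% and 46.8% of all genes, with RPL10C (-0.96), RPL11A (-1.15), RPL19A (-0.43), RPL7B (-0.62), RPL7C (-1.32) and RPL8C (-0.83) turned. Sites numbered 832 at minimums of 5 or 50 reads, 794 with the Benjamini-Yekutieli adjustment, 791 in 15 members by the deposited adjusted p, and 1 in 1 member at 5 points or more. The highest paralog was the same in 13 families without either replicate. Cytosines with under 5 treated T reads are not listed, so rates below that were not detectable at the depth of each site. Without sites under a minus-strand gene 766 in 15 members remained.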
